A study of Rattus norvegicus with 12 samples.

Results

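Genes of the collagens, of the basement membrane and of other matrix proteins were followed in mammary glands of rats taken at postnatal day (PND) 21. The 42 genes were listed by name as genes of the extracellular matrix, and each was looked for in the count table through its rat Entrez identifier. Of these, 29 were matched among the 16511 genes of the table, and 28 of the 29 passed the filter on low counts and entered the test, which covered 9382 genes. The remaining 13 (Col4a2, Col6a1, Col6a3, Col12a1, Col15a1, Lama2, Lama4, Lamb1, Nid1, Hspg2, Fbln2, Tnc and Tnxb) were not analysed here. Among the listed genes were 6 fibrillar collagens, 3 chains of beaded-filament collagen and 3 fibril-associated collagens, of which 6, 1 and 2 were analysed. Of 4 basement membrane collagens, 6 laminins and 3 genes of nidogen and perlecan, 2, 3 and 1 were analysed. The list closed with 5 glycoproteins, 7 genes of elastic fibres and crosslinking and 5 small leucine-rich proteoglycans, of which 3, 6 and 5 were analysed.

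The glands came from the offspring of dams on a high fat butter diet (HFB, n = 6) or on the control AIN diet (CTL, n = 6), each gland taken from a separate litter and snap frozen. The rats were Sprague-Dawley according to the study's methods, and the labels name no strain. Maternal feeding started on gestation day 1 according to the design text, which is not clear on when it ended. That text names PND 23, later than the sampling at PND 21, but also a control diet for newborns. The study's methods put the start before mating and the end at birth, and the difference was not settled. All glands were taken at PND 21, and neither the labels nor the design text names any other agent. The study's paper, however, ties these data to laser-dissected epithelium of rats given the butter diet with or without bisphenol A. Fat cell and fibroblast genes were counted at high levels in each library, as given below, so these are not libraries of epithelium alone. Samples are called here what their labels say, and why the accounts differ was not settled. Libraries are named by diet and library number, HFB 1 to 6 and CTL 7 to 11 and 14.

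The authors deposited raw counts of reads per gene. Total counts ran from 2320267 in HFB 1 to 2944680 in CTL 7. Levels are given below as CPM, read counts brought to a common library size by the TMM method. A count of 3, used as the lowest level that can be detected in a library, corresponds to between 0.949 and 1.30 CPM, a limit that covers counting error only. For most of the matrix genes the spread between glands was far larger than counting error, with coefficients of variation of 22.6% and 0.534% for Col1a1 and 22.8% and 2.85% for Lamc1. CPM also grows with the length of a transcript, so levels are compared between libraries and not between genes.

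Fibrillar collagens are trimers of chains that assemble into the fibrils giving a tissue its tensile strength. Basement membranes are thin sheets of network-forming collagen, laminin, nidogen and perlecan that lie under epithelia and around fat cells, muscle fibres and vessels. In the immature mammary gland the ducts grow into a fat pad, and fibroblasts, fat cells, mural cells and epithelium all contribute to the matrix around them.

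Before the diets are compared, the glands themselves must be described, because HFB 6 and CTL 14 stood apart from the other 10. The listed genes took up 4.0% of the counts in HFB 6 and 4.24% in CTL 14, and between 5.05% (HFB 2) and 8.09% (CTL 9) in the others. By diet the share was 5.91% ± 1.21 with HFB and 6.85% ± 1.43 with CTL (SD, n = 6 each). Col1a1, Col1a2, Col3a1 and Sparc together gave 70.4% (HFB 6) to 79.5% (HFB 5) of the counts on the listed genes.

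Lists of marker genes for 10 tissues and cell types were read in the same libraries, and several set the same 2 apart. The 9 lymphocyte markers found in the table (of 10 listed) summed to 921 CPM in HFB 6 and 973 CPM in CTL 14, against 6.32 to 219.6 CPM (median 24.2) elsewhere, with HFB 1 the highest of those. Of them Cd79b had the highest CPM on average over the libraries, though Cd3g was higher in HFB 1, HFB 2 and CTL 9, and a list is said below to be led by the gene that is highest in this sense, without regard to transcript length. Cd79b was at 263 and 231 CPM in the pair and at 0.790 to 21.4 CPM in the other libraries, and 8 of the 9 markers were higher in both than in any other library. Of the T cell genes, Cd3e was at 0 in HFB 4, Cd2 in HFB 3 and Cd3g in CTL 11. Of the B cell genes, Ms4a1 was at 0 in CTL 11, and Cr2 in HFB 4, HFB 5, CTL 8 and CTL 11. Markers of smooth muscle and mural cells (9 of 10 found, led by Tagln, 7 of them higher in both than in any other library) summed to 1608 and 1516 CPM in the pair, and to 339.7 to 611 CPM (median 469) in the others. Rgs5 of this list was highest in CTL 14 (19.7 CPM) but within the range of the others in HFB 6 (13.2 CPM). Cspg4 was within the range of the others in HFB 6 (117 CPM) and lowest of all in CTL 14 (76.4 CPM). Endothelial markers (8 of 10 found, led by Pecam1, with Cldn5 at 0 in all libraries) summed to 648 and 670.2 CPM, and to 201 to 315 CPM (median 232) in the others. Of these 8, 4 were higher in both than in any other library (Pecam1, Tie1, Esam and Emcn). Cdh5, in contrast, was lowest of all in HFB 6, at 2.81 CPM, and Tek and Flt1 lay within the range of the others.

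Most markers of fat cells and of fibroblasts were low in the same pair. The 9 adipocyte markers found (of 10, led by Fabp4) summed to 23050.4 CPM in HFB 6 and 17500.1 CPM in CTL 14, and to 31330.2 to 41609 CPM (median 36189) elsewhere. In both libraries 8 of the 9 lay below all others, and the exception, Cfd, was at 4062 CPM in HFB 6, near the top of the range of the others. The 9 fibroblast markers found (of 10, led by Dpt) gave 1517 and 1263 CPM against 1887 to 3037 CPM (median 2468). Here 5 of the 9 lay below all others in both, and 1, Pdgfrb, lay above, at 113 and 133 CPM against at most 78.1 CPM. Among the 5 were Dpt, at 967 CPM in HFB 6 and 728 CPM in CTL 14, and Mfap5. Both are also listed among the further matrix genes below, so this sum is not separate from the matrix genes. In bulk tissue, fewer cells of a type and less RNA per cell cannot be told apart, and the part of these cell types in the levels of the matrix genes was not tested.

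The remaining 5 lists separated the pair less or not at all. Skeletal muscle markers (9 of 10 found, led by Acta1) summed to between 229 CPM in CTL 10 and 8369 CPM in HFB 6, and red blood cell markers (7 of 8 found, led by Hbb, with Epb42 at 0 in CTL 11) to between 8003 CPM in CTL 10 and 82710.5 CPM in HFB 2. Epithelial keratins and junction genes (8 of 10 found, led by Krt8, with Cldn3 at 0 in all libraries) ran from 118 CPM in HFB 1 to 679 CPM in HFB 6, with CTL 14 next at 672 CPM and HFB 5 after it at 639.8 CPM. Macrophage genes (10 of 10 found, led by Lyz2) ran from 772 CPM in CTL 8 to 1800.4 CPM in HFB 6, with CTL 14 next at 1404 CPM. The largest part of this sum in the pair was Lyz2, at 835 and 909 CPM, and members of the list went in both directions. Lyz2 and Cd68 were higher in both than in any other library, Mrc1 and Cd163 were lower in both, and the mean log2 CPM of the list was lowest in CTL 14. Mpeg1, on this list, was at 0 in CTL 8. Schwann cell genes (10 of 10 found, led by Mbp, with Cdh19 at 0 in all libraries and Mag in 6) ran from 95.8 CPM in HFB 1 to 495 CPM in CTL 14. Fat cell, fibroblast and epithelial genes, as the label of mammary gland calls for, were thus counted in each library, apart from Cldn3.

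**Figure D1:**
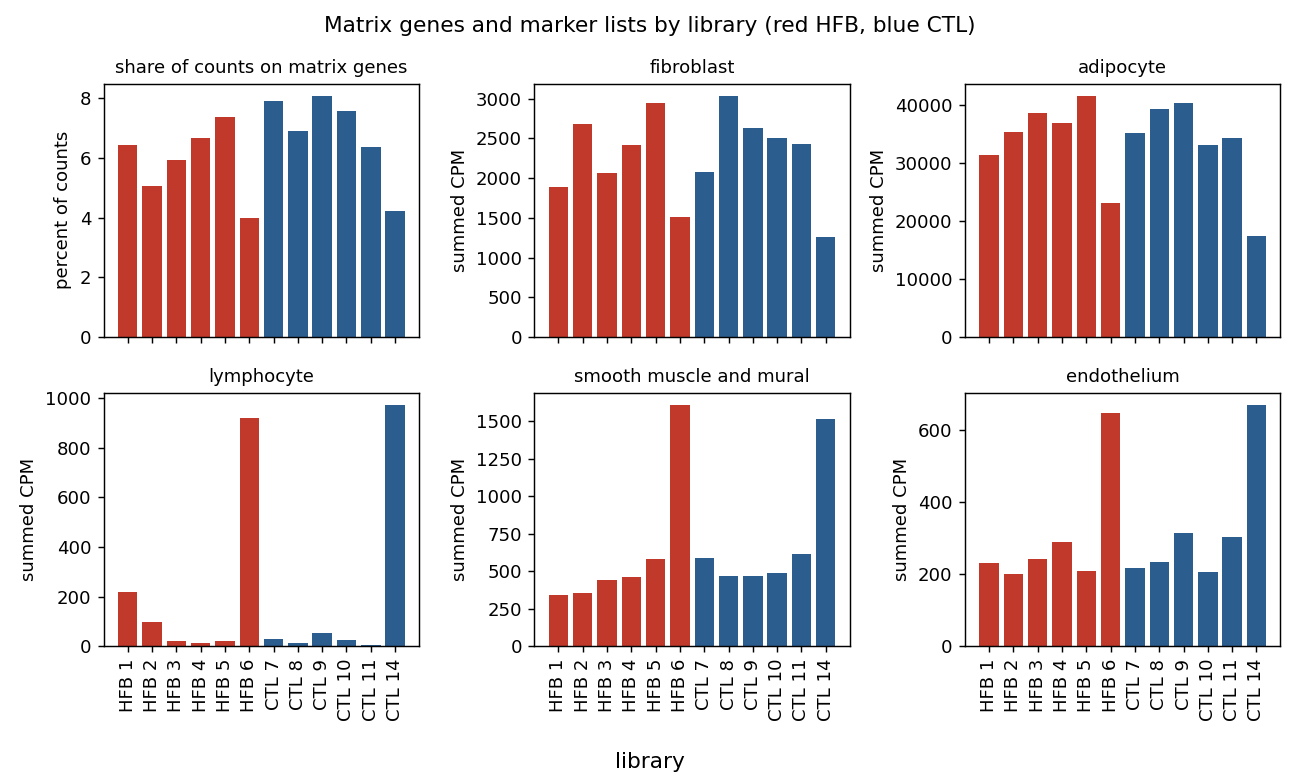
Bars give, for each of the 12 libraries (red HFB, blue CTL), the percent of counts on the listed matrix genes and the summed CPM of 5 marker lists. HFB 6 and CTL 14 are the lowest for matrix genes and for the sums of fibroblast and adipocyte markers. They are the highest for the sums of lymphocyte, smooth muscle and mural, and endothelial markers, though not for every gene of these lists.

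Among the 28 tested matrix genes, 14 were lower in both HFB 6 and CTL 14 than in any other library (Col1a2, Col3a1, Col5a1, Col5a2, Col4a1, Col14a1, Lamc1, Nid2, Fn1, Sparc, Fbn1, Lox, Dcn and Ogn). Over all genes tested this held for 1805, or 19.2%. Higher in both were 3 matrix genes (Lama5, Bgn and Fmod), beside 2093 of all genes, or 22.3%. The other 11 were neither, among them Col1a1, where HFB 2 lay below HFB 6, and Col6a2, which was highest in HFB 6.

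The size of these departures differed by gene. Fbn1, the main fibrillin of microfibrils, was at 28.5 CPM in HFB 6 and 76.1 CPM in CTL 14, and its median in the other 10 libraries was 403 CPM (range 179 to 543). The ratios to that median were 0.0706 and 0.189. Ratios were 0.779 and 0.673 for Col1a1, and 3.72 and 4.13 for Lama5. Biglycan (Bgn), a proteoglycan that binds collagen, had ratios of 1.82 and 1.27, while its relative decorin (Dcn) had 0.415 and 0.382. Matrix genes thus did not move as a block, and genes of 1 family went in opposite directions in the same glands.

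**Figure D2:**
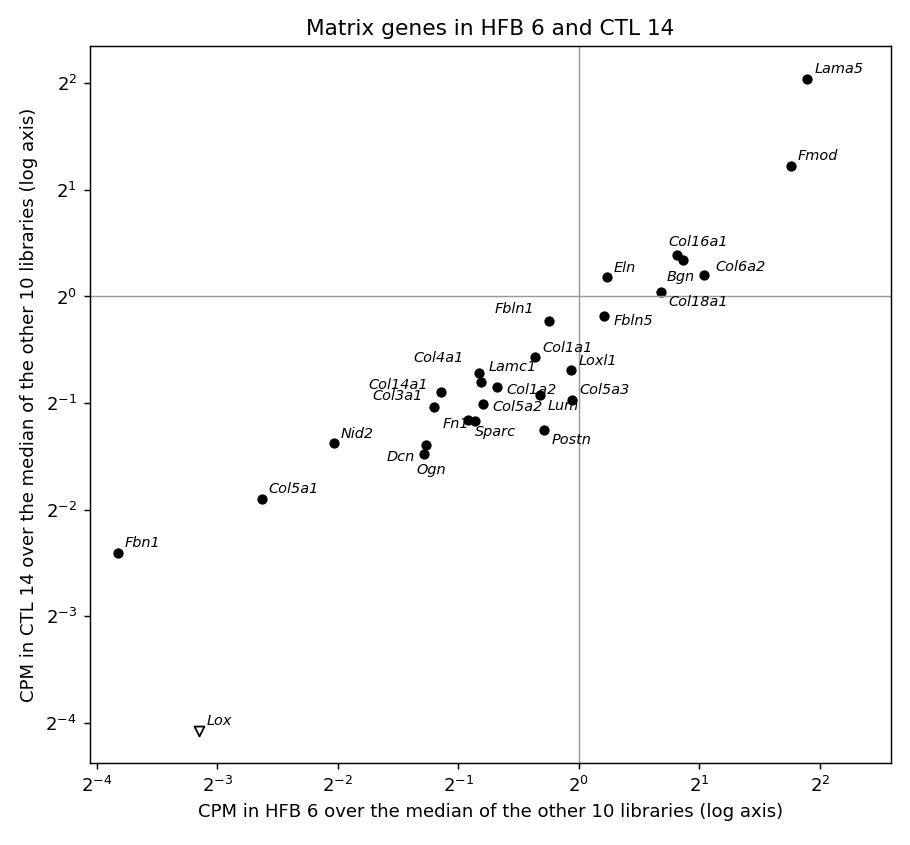
Each point is a matrix gene, placed by its CPM in HFB 6 (horizontal) and in CTL 14 (vertical) over its median in the other 10 libraries, on log2 axes; the open triangle marks Lox, with 0 counts in CTL 14, drawn at the level of 3 counts. Fbn1 lies lowest among genes with counts in both, and Lama5 and Fmod lie highest.

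Promoter sequences were set beside these values to see what genes that moved together in the pair hold near their starts. RefSeq windows of 300 bases on the GRCr8 assembly, from 250 bases before to 50 after the start, were matched for 28 of the 42 genes, 17 of them analysed. Shown are Col1a2 and Ogn, both low in HFB 6 and CTL 14, and Lama5 and Fmod, both high. Capitals mark, on either strand, the CCAAT box (letters CCAAT), the TATA box (letters TATAAA), the GC box (letters GGGCGG) and the AP-1 motif (letters TGACTCA, or their complement TGAGTCA).
Col1a2, chr4:33518307-33518606, plus strand: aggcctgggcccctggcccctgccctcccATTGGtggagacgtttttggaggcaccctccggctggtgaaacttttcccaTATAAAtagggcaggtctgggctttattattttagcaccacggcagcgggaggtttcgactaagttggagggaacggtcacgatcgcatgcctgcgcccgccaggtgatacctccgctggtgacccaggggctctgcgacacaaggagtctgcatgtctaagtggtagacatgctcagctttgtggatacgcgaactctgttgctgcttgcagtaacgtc
Ogn, chr17:15258946-15259245, minus strand: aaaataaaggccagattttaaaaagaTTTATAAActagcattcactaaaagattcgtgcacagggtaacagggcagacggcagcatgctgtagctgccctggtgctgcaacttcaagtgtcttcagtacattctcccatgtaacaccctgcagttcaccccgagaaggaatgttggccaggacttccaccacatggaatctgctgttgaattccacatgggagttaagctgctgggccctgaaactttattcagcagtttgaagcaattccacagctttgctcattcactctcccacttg
Lama5, chr3:187695925-187696224, minus strand: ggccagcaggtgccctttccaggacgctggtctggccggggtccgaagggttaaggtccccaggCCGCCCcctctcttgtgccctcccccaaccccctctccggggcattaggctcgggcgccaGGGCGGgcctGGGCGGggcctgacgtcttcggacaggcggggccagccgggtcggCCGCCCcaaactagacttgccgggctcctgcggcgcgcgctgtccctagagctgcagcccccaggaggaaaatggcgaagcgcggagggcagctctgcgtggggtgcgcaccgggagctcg
Fmod, chr13:48045317-48045616, plus strand: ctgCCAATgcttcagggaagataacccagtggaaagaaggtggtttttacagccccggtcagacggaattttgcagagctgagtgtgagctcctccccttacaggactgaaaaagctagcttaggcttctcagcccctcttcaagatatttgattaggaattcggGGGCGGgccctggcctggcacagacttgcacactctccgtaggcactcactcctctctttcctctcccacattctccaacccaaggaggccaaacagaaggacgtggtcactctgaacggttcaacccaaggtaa
The letters TATAAA stood once in the window of Col1a2, and in that of Ogn on both strands in overlapping positions, while Lama5 held GGGCGG at 4 positions. Col1a2 and Ogn were the only genes low in both libraries with TATAAA in their window, so they do not stand for the low genes. Nor was GGGCGG particular to the high genes, as Lamc1, low in both libraries, held it at 5 positions. Over the 17 analysed genes with a window, CCAAT was present in 6, TATAAA in 3 and GGGCGG in 9, and the AP-1 motif in 0. Over all 33469 promoters of the same length the shares were 37.5%, 14.2%, 33.1% and 4.63%. Among the 8 genes with a window that were low in both libraries, CCAAT was found in 2, TATAAA in 2 and GGGCGG in 3, and among the other 9 in 4, 1 and 6. A match in letters is not evidence of a bound site.

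Between the diets, no gene passed the threshold. The edgeR quasi-likelihood test with Benjamini-Hochberg adjustment over all 9382 genes called 0 genes at an adjusted p of 0.05, a share of 0%, and therefore 0 of the 28 matrix genes. At an unadjusted p under 0.05 it gave 220 genes, or 2.34%, and again 0 of the 28. DESeq2 called 0 genes and gave 271 at an unadjusted p under 0.05, with 0 matrix genes among them. The count of 220 was 135 to 141 without HFB 5, CTL 7, CTL 10 or CTL 11, 378 without HFB 1, 389 without HFB 4 and 587 without CTL 14. In edgeR the smallest unadjusted p of a matrix gene was 0.132, for Lamc1, and each adjusted p was 0.999.

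Fitted fold changes of the 28 genes nevertheless lay mostly on 1 side. With HFB over CTL as the direction, 25 of 28 had a log2 fold change below 0, where 4688 of all genes, or 50.0%, did. The median was -0.16 for the matrix genes and 0.00018 for all genes, and that of the matrix genes was -0.073 with the lymphocyte score as a covariate and between -0.27 (without CTL 14) and -0.11 (without HFB 2) with 1 library left out. Single values ran from -0.52 for Lox to 0.16 for Col6a2. The median coefficient of variation over the 12 libraries was 25.1% for the matrix genes and 28.01% for all genes, and over the 10 without HFB 6 and CTL 14 it was 18.5% and 20.5%. The marker lists, read from the same fit, had 0 genes past the adjusted threshold in edgeR and 1 gene, C1qb of the macrophage list, at an unadjusted p under 0.05. The median log2 fold change was -0.16 for fibroblast genes (2 of 9 above 0), -0.18 for epithelial genes (0 of 7), -0.24 for smooth muscle and mural genes (3 of 9), -0.14 for endothelial genes (2 of 7) and -0.36 for Schwann cell genes (0 of 7). It was 0.037 for adipocyte genes (5 of 9), 0.13 for macrophage genes (8 of 10), 0.32 for lymphocyte genes (3 of 4), 0.42 for skeletal muscle genes (9 of 9) and 0.85 for red blood cell genes (6 of 6). Their part in the values of the matrix genes was not tested. Genes of 1 tissue vary together between glands, so the 28 are not independent. The CPM of the diets overlapped for each of the 28 genes, and failed to overlap for 10 of all genes, or 0.107%.

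**Figure D3:**
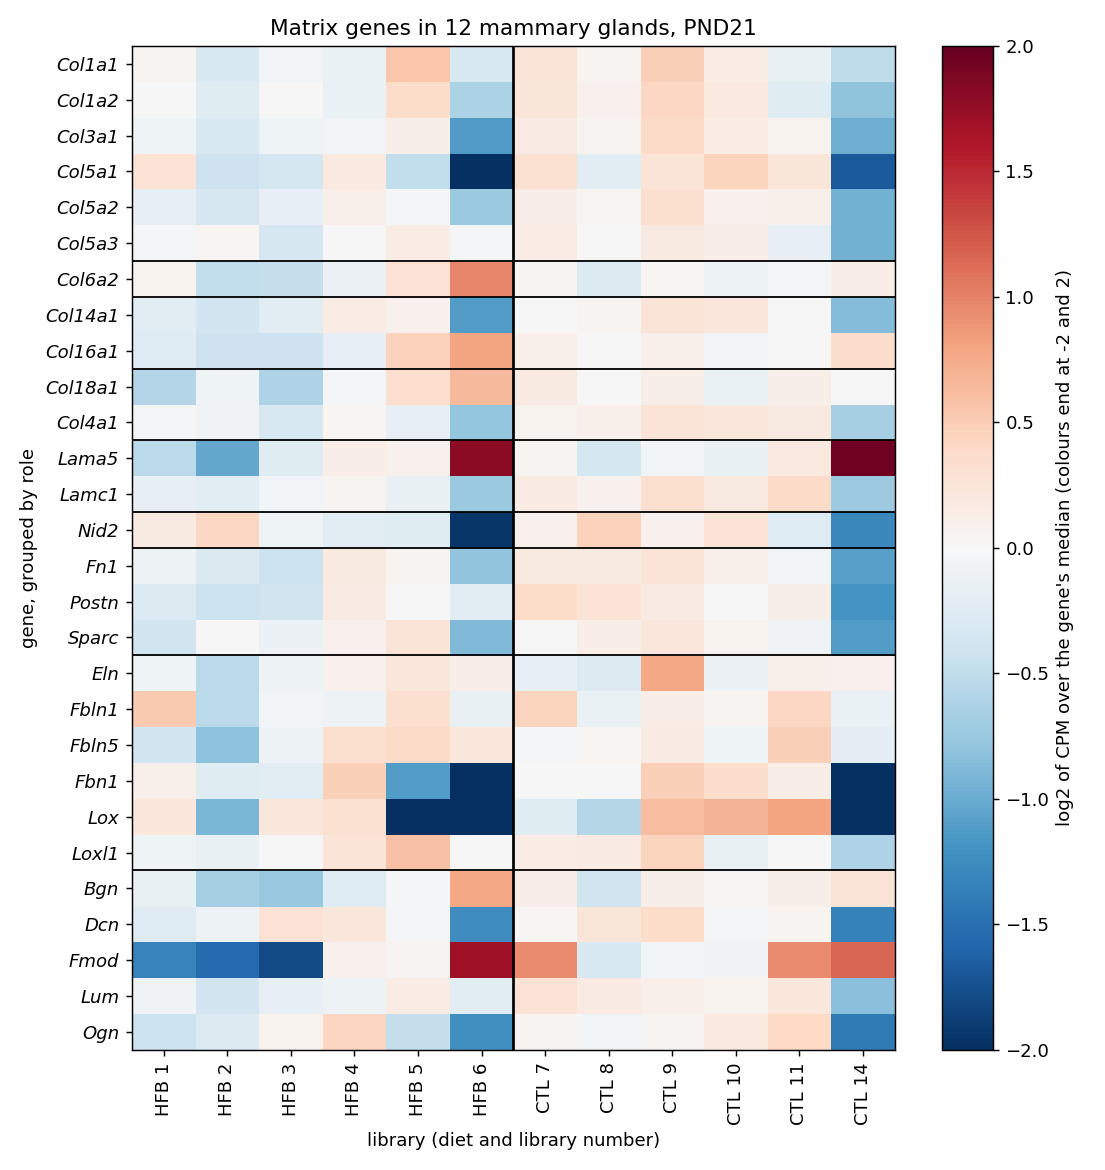
Colours give the log2 of CPM over the gene's median of 12 libraries, for 28 matrix genes grouped by role (horizontal lines) in HFB (left) and CTL (right) glands; CPM under the level of 3 counts was set to that level. HFB 6 and CTL 14 hold most of the deep colours, with Lama5 and Fmod high and Fbn1, Lox, Col5a1 and Nid2 low.

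Fibrillar collagens were represented by both chains of type I, by type III and by 3 chains of type V. Col1a1 (Entrez 29393), the more numerous chain of the type I trimer, ran from 10628 to 19364 CPM with a median of 12352 with HFB, and from 9240.1 to 18267 CPM with a median of 14184 with CTL. HFB 5 was the highest library and CTL 14 the lowest, and the groups overlapped over most of their range. The means were 13191 ± 3253 and 13924 ± 3121 CPM (SD, n = 6 each), and the log2 fold change was -0.078 ± 0.24 (SE), or -0.22 without HFB 5 and 0.016 without CTL 9. Its partner Col1a2 (Entrez 84352) followed it closely. HFB glands gave 4783 to 9502 CPM with a median of 7035, and CTL glands gave 4235 to 9858 CPM with a median of 8149, with a log2 fold change of -0.11 ± 0.24 (-0.22 without CTL 14, -0.019 without CTL 9). The values in parentheses, here and for the genes below, are the lowest and the highest obtained with 1 library left out.

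Type III collagen, encoded by Col3a1 (Entrez 84032), is laid down beside type I in soft tissues. It ran from 7607 to 18098 CPM with a median of 15849 in the HFB group and from 8530.5 to 21796 CPM with a median of 18042 in the CTL group. Apart from CTL 14, the CTL libraries lay above every HFB library except HFB 5, while HFB 6 was the lowest of all and CTL 14 came next. With both included the log2 fold change was -0.24 ± 0.28 (edgeR, unadjusted p = 0.405), and it was -0.37 without CTL 14 and -0.11 without HFB 6.

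Type V collagen sits inside type I fibrils and limits their width. Col5a1 (Entrez 85490) ran from 48.1 to 313 CPM with a median of 196 with HFB and from 79.9 to 348 CPM with a median of 305 with CTL, and its log2 fold change was -0.35 ± 0.40 (-0.53 without CTL 14, -0.15 without HFB 6). Col5a2 (Entrez 85250) ran from 473 to 844 CPM with a median of 705 and from 409 to 986 CPM with a median of 843, with a log2 fold change of -0.20 ± 0.20 (-0.33 without CTL 14, -0.12 without HFB 6). Both were lowest in HFB 6 and CTL 14, Col5a1 more so. Col5a3 (Entrez 60379) was low in CTL 14 but not in HFB 6. It had the smallest coefficient of variation of all tested matrix genes over the 12 libraries, 17.9%, and HFB 6, at 977 CPM, lay within the HFB range of 792 to 1109 CPM (median 996). In the CTL group it ran from 519 to 1139.5 CPM with a median of 1051, and its log2 fold change was 0.031 ± 0.18, a value that turned below 0 without CTL 14 (-0.082) and without HFB 5 (-0.0062).

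Around the fibrils lie collagens that link them to other matrix. Col6a2 (Entrez 361821), a chain of the beaded filaments of type VI collagen, ran from 559 to 1547 CPM with a median of 778 with HFB and from 655 to 868 CPM with a median of 790.4 with CTL. Its highest value came from HFB 6, and without that library its log2 fold change went from 0.16 ± 0.23 to -0.090. Col14a1 (Entrez 314981), which coats fibrils, ran from 225 to 537 CPM with a median of 422 and from 267 to 584 CPM with a median of 498, with a log2 fold change of -0.22 ± 0.22 (-0.33 without CTL 14, -0.089 without HFB 6). Col16a1, another fibril-associated collagen, ran from 68.2 CPM in HFB 3 to 157 CPM in HFB 6 over the 12 libraries. It stood high in the library where Col14a1 stood low.

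Among basement membrane genes were those with the smallest p-values, Lamc1 and Col4a1, and others with large ones, such as Col18a1 (edgeR, unadjusted p = 0.869), Lama5 (0.725) and Nid2 (0.680). Col4a1 (Entrez 290905), a chain of the type IV network found in all basement membranes, ran from 1294 to 2283 CPM with a median of 2036 with HFB and from 1402 to 2642 CPM with a median of 2445 with CTL. All 6 HFB libraries lay below the CTL median, and 5 of the 6 CTL libraries lay above every HFB library, while CTL 14 lay below all but HFB 6. The means were 1927 ± 355 and 2307 ± 459 CPM (SD, n = 6 each), a log2 fold change of -0.26 ± 0.19 (edgeR, unadjusted p = 0.201, adjusted p = 0.999). It was -0.36 without CTL 14 and -0.17 without HFB 6. Col18a1, whose product carries the endostatin fragment, ran from 175 CPM in HFB 3 to 422 CPM in HFB 6 and had a log2 fold change of -0.034 ± 0.20, or -0.21 ± 0.17 without HFB 6 and CTL 14. With limma-voom, described below, it was -0.33 ± 0.14 (unadjusted p = 0.0280), so its p was not large in every fit.

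In the GRCr8 gene table Col4a1 lies next to Col4a2, the other chain of its trimer, on the opposite strand and head to head. Their starts on chromosome 16 are separated by 76 bases, and the 300-base windows of the pair share 176. The window of Col4a1 is shown with the bases it shares with that of Col4a2 in capitals.
Col4a1, chr16:84885347-84885646, plus strand: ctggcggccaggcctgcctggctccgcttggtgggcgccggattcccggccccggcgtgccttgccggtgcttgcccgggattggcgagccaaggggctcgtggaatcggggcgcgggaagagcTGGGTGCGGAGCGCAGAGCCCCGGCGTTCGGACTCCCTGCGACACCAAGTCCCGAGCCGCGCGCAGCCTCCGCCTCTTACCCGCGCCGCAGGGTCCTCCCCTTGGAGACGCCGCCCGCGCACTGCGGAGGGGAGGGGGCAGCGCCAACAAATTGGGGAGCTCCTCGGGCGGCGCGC
The shared stretch held CCAAT once, on the minus strand, and 75.0% of its bases were G or C. Over the 17 analysed genes with a window the median share of G and C was 61.0%, against 51.7% over all promoters. Col3a1 and Col5a2 are neighbours in the same table, as are Dcn and Lum.

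Laminins are trimers of an alpha, a beta and a gamma chain, and Lamc1 (Entrez 117036) encodes the gamma chain found in most of them. It ran from 292 to 507 CPM with a median of 437 with HFB and from 295 to 636 CPM with a median of 550.4 with CTL. As with Col4a1, all 6 HFB libraries lay below the CTL median, 5 CTL libraries lay above every HFB library, and CTL 14 and HFB 6 were the low pair. The means were 427 ± 73.2 and 527 ± 121 CPM (SD, n = 6 each), and the log2 fold change of -0.30 ± 0.19 missed the threshold (edgeR, unadjusted p = 0.132, adjusted p = 0.999).

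Lama5 (Entrez 140433), an alpha chain of epithelial and vascular basement membranes, was the most variable of the tested matrix genes, with a coefficient of variation of 80.3% over 12 libraries and 22.6% over the 10 without the pair. It ran from 12.9 to 91.0 CPM with a median of 25.0 with HFB and from 20.6 to 101 CPM with a median of 26.2 with CTL. HFB 6 and CTL 14 were the 2 high libraries. Its log2 fold change of -0.18 ± 0.51 turned to 0.42 without CTL 14 and to -0.79 without HFB 6. Lamb2 (Entrez 25473), a beta chain, had 0 counts in all 12 libraries. So had Cldn3, Cldn5 and Cdh19 of the marker lists, and from such a gene, with no read in any library, no limit on expression is drawn.

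Nidogens bridge the laminin and collagen networks. Nid2 (Entrez 302248) ran from 99.4 to 514 CPM with a median of 347 with HFB and from 157 to 532 CPM with a median of 407 with CTL. HFB 6 was the lowest library and CTL 14 came next, and the log2 fold change was -0.15 ± 0.34, or -0.30 without CTL 14 and 0.047 without HFB 6.

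**Figure D4:**
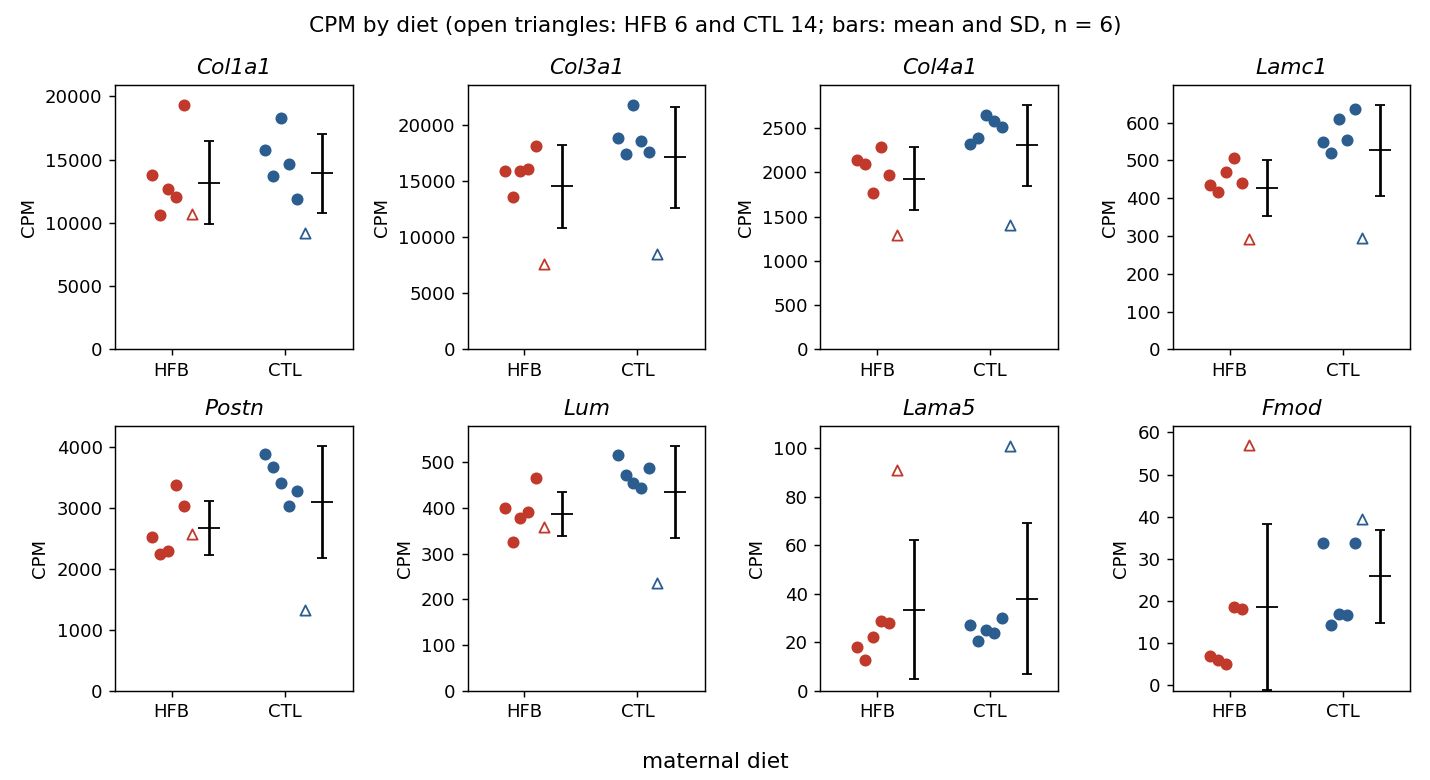
Points give CPM of 8 matrix genes in each library by maternal diet, with the mean and SD of 6 libraries beside them; open triangles mark HFB 6 and CTL 14. For Col4a1 and Lamc1 the 5 other CTL libraries lie above every HFB library, and for Lama5 the triangles lie above all points.

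Glycoproteins tie cells and fibrils together. Postn (Entrez 361945), periostin, ran from 2249 to 3377 CPM with a median of 2547 with HFB and from 1326 to 3893 CPM with a median of 3336 with CTL, and CTL 14 was the lowest of the 12. Its log2 fold change was -0.21 ± 0.24 (-0.36 without CTL 14, -0.13 without CTL 7). Sparc (Entrez 24791), a collagen-binding protein secreted by fibroblasts and fat cells, ran from 6984 to 15414 CPM with a median of 12383 and from 5911 to 15108 CPM with a median of 13094, with a log2 fold change of -0.056 ± 0.27 that became -0.19 without CTL 14, 0.058 without HFB 6 and 0.014 without CTL 9. Fn1, fibronectin, ran from 671 CPM in CTL 14 to 1708 CPM in CTL 9, and HFB 6 was next to lowest at 828 CPM.

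Elastic fibres consist of elastin on a scaffold of fibrillin microfibrils, and lysyl oxidases crosslink both elastin and collagen. Eln (Entrez 25043), elastin, ran from 764 to 1299.7 CPM with a median of 1106 with HFB and from 912 to 1883 CPM with a median of 1096 with CTL. CTL 9 stood well above the rest, while HFB 6 and CTL 14 lay within the range of the others. Its log2 fold change was -0.14 ± 0.20, or 0.042 without CTL 9. Fbn1 had a log2 fold change of -0.34 ± 0.54, and besides the low pair HFB 5 was low, at 179 CPM.

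Lox (Entrez 24914), lysyl oxidase, was counted least securely, with 424 counts over all libraries. It ran from 2.0 to 19.0 CPM with a median of 12.9 with HFB, and in the CTL group from 0 counts in CTL 14 to 26.5 CPM with a median of 18.2. The 0 in CTL 14 allows up to 1.06 CPM, and HFB 5 and HFB 6 were near the limit too. The log2 fold change was -0.52 ± 0.72 (-0.77 without CTL 14, -0.30 without HFB 6). Its relative Loxl1, with 131 CPM in CTL 14 and 302 CPM in HFB 5 as its extremes, was among the 3 genes with a fold change above 0, at 0.091 ± 0.18. The fibulins, which join elastin to microfibrils, had log2 fold changes of -0.11 ± 0.21 (Fbln1, 475 counts in all) and -0.085 ± 0.20 (Fbln5).

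Small leucine-rich proteoglycans coat collagen fibrils and regulate their spacing. Dcn (Entrez 29139), decorin, ran from 796 to 2291 CPM with a median of 1779 with HFB and from 731 to 2423 CPM with a median of 1917 with CTL. HFB 6 and CTL 14 lay far below the other 10, and the log2 fold change was -0.088 ± 0.29, which became -0.25 without CTL 14, 0.061 without HFB 6 and 0.0072 without CTL 9. Lum (Entrez 81682), lumican, ran from 325 to 466 CPM with a median of 385 and from 236 to 517 CPM with a median of 463. CTL 14 was its lowest library but HFB 6 lay among the other HFB glands, and the log2 fold change was -0.17 ± 0.18 (-0.28 without CTL 14, -0.11 without CTL 7). Ogn, osteoglycin, was lowest in CTL 14 (93.3 CPM) and HFB 6 (106 CPM) and highest in HFB 4 (338 CPM). Bgn and Fmod went the other way in the pair. Bgn ran from 252 CPM in HFB 3 to 729 CPM in HFB 6, and Fmod, fibromodulin, from 5.07 CPM in HFB 3 to 56.9 CPM in HFB 6.

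Since HFB 6 and CTL 14 stood apart, the fit was repeated without them, a choice made after the data had been seen. No gene passed the adjusted threshold among the 9386 tested. An unadjusted p under 0.05 was reached by 431 genes, or 4.59%, and by 6 of the 28 matrix genes, each lower with HFB. These were Lamc1, Fmod, Lum, Postn, Col4a1 and Bgn, and they are named because of these values. Fold changes below 0 numbered 27 of 28 (48.7% of all genes), with a median of -0.21 for the matrix genes and 0.0066 for all genes. Loxl1, at 0.014, was the exception.

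In this reduced set of 5 against 5 glands Lamc1 had the smallest p of the list. Its HFB libraries lay between 416 and 507 CPM and its CTL libraries between 519 and 636 CPM, with a log2 fold change of -0.33 ± 0.11 (edgeR, unadjusted p = 0.00768). Col4a1 lay between 1769 and 2283 CPM with HFB and between 2320.5 and 2642 CPM with CTL, with a log2 fold change of -0.27 ± 0.12 (edgeR, unadjusted p = 0.0437). The groups did not overlap for these 2 of the 28 genes, nor for 76 of all genes, or 0.810%. For Postn the log2 fold change was -0.36 ± 0.15, for Lum -0.27 ± 0.12 and for Bgn -0.35 ± 0.16, with overlapping groups. Fmod had -1.06 ± 0.40, with values from 5.07 to 18.6 CPM with HFB and from 14.2 to 33.9 CPM with CTL, and 704 counts over all 12 libraries.

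A fit that weights libraries by their quality instead of leaving any out (limma-voom with sample quality weights, all 12 libraries) again called 0 genes. It gave 613 genes with an unadjusted p under 0.05, or 6.53%, and 12 of the 28 matrix genes, each lower with HFB. Fold changes below 0 numbered 28 of 28 (51.2% of all genes). The 12 were the 6 above and Col3a1, Col5a2, Col14a1, Col16a1, Col18a1 and Fn1. In 7 other analyses of all 12 libraries (DESeq2 and its size factors, upper-quartile scaling, no filter, a stricter filter, and lymphocyte or skeletal muscle scores as covariates) 0 matrix genes had an unadjusted p under 0.05, and with lymphocyte and adipocyte scores together, tried after the data had been seen, 2 had, beside 666 of all genes. Leaving out HFB 6 alone gave 2, beside 269 of all genes, leaving out CTL 14 alone gave 5, beside 587, and leaving out any of the other 10 gave 0. The lymphocyte covariate brought the log2 fold change of Lamc1 to -0.19, of Col4a1 to -0.17 and of Lox to -0.078.

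**Figure D5:**
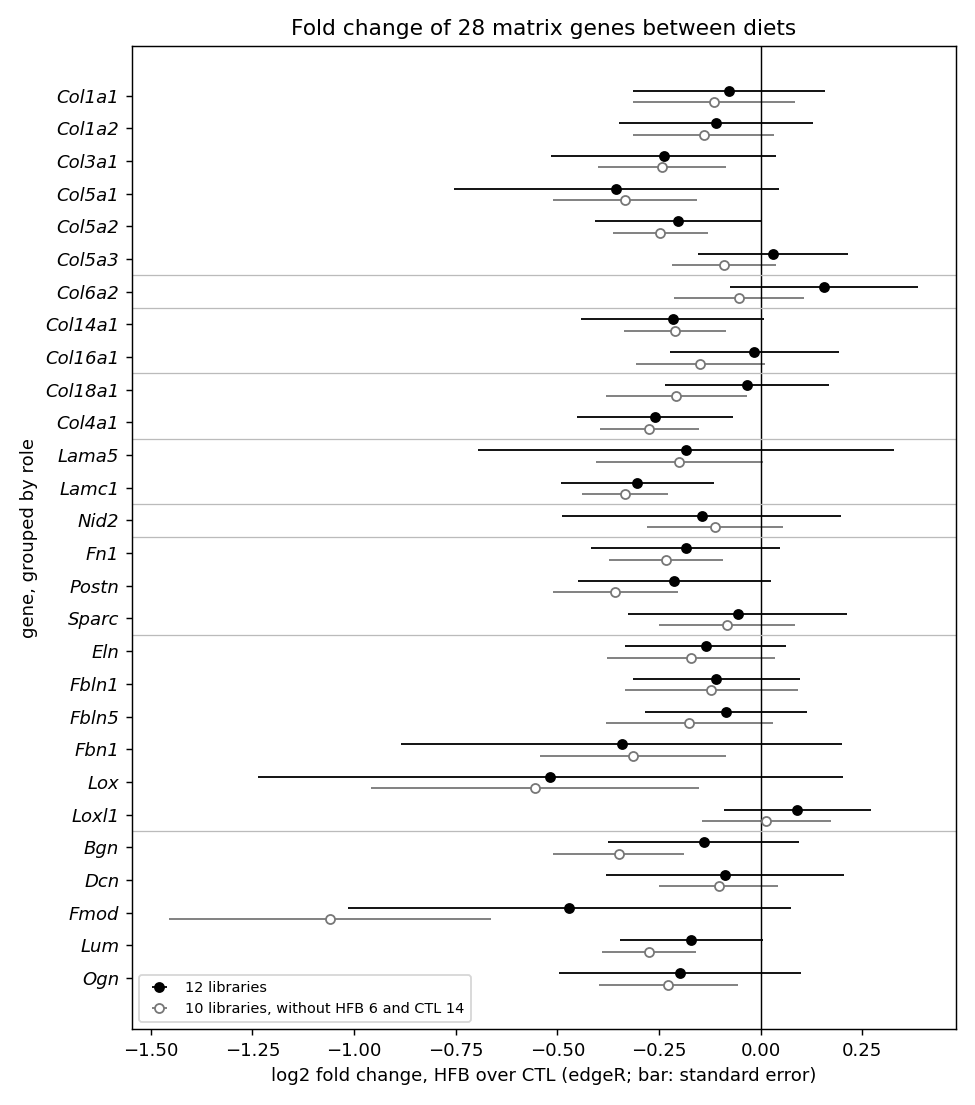
Points give the log2 fold change (HFB over CTL) of 28 matrix genes grouped by role, with standard errors, from edgeR on 12 libraries (filled) and on the 10 without HFB 6 and CTL 14 (open). Of the filled points 25 lie below 0 and of the open points 27, and Fmod moves most.

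Genes that make, modify or bind the matrix gave the same picture of no called change. Of 28 listed genes of collagen biosynthesis, 22 were tested and 0 passed, with 12 fold changes below 0. The smallest unadjusted p-values were 0.103 for P3h4, a helper of collagen hydroxylation, 0.344 for Pcolce, which enhances procollagen cleavage, and 0.424 for P3h3. In HFB 6 and CTL 14 together, 9 of the 22 lay below all other libraries and 0 above them, beside 19.2% and 22.3% of all genes. P3h4 was at 18.1 ± 7.61 CPM with HFB and 27.2 ± 10.5 CPM with CTL (SD, n = 6 each).

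Of 44 listed further matrix genes, 29 were tested and 0 passed the adjusted threshold, and 1 had an unadjusted p under 0.05, beside 2.34% of all genes. Leaving out 1 library gave between 0 (without HFB 1, among others) and 5 (without CTL 14) over the 3 lists together. The gene was Col2a1, the fibrillar collagen of cartilage, which ran from 3.90 to 19.0 CPM with a median of 7.49 with HFB and from 8.70 to 41.1 CPM with a median of 21.5 with CTL. All 6 HFB libraries lay below the CTL median, and the log2 fold change was -1.05 ± 0.46 (edgeR, unadjusted p = 0.0395, adjusted p = 0.999). Without HFB 6 and CTL 14 its unadjusted p in edgeR was 0.0617. Of 25 listed matrix receptors, 17 were tested and 0 passed, and 13 had a fold change below 0. In HFB 6 and CTL 14 together, 7 of the 17 receptors lay above all other libraries and 4 below, and of the 29 further matrix genes 8 lay above and 5 below, beside 22.3% and 19.2% of all genes. The collagen receptor Ddr1 (unadjusted p = 0.111), the laminin-binding integrin Itga7 (0.222) and the collagen receptor Ddr2 (0.256) had the smallest p-values. Without HFB 6 and CTL 14, 7 of the 68 genes on the 3 lists had an unadjusted p under 0.05, each lower with HFB, beside 4.59% of all genes. They were P3h4, Col17a1, Agrn, Vcan, Efemp1, Ddr1 and Ddr2, chosen here for these values, with log2 fold changes from -0.66 (Col17a1) to -0.35 (Efemp1).

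Chains of the same or of interchangeable molecules were compared as ratios of counts within a library, which do not depend on the scaling between libraries. Col1a1 to Col1a2 ran from 1.70 to 2.04 in 10 libraries, and HFB 6 and CTL 14 had 2.23 and 2.18, the 2 highest. Col3a1 to Col1a1 ran from 0.935 to 1.47, and the pair had 0.712 and 0.923, the 2 lowest. In both glands these ratios thus lay outside the range of the other 10. Col5a1 to Col5a2 was 0.102 and 0.196 in the pair, against 0.235 to 0.446.

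Between the diets none of the 3 ratios differed beyond the spread of the glands. The differences in mean log2 ratio (HFB minus CTL) were 0.011 for Col1a1 to Col1a2, -0.16 for Col3a1 to Col1a1 and -0.24 for Col5a1 to Col5a2. Two-sided exact permutation tests gave p = 0.894, 0.407 and 0.550 (n = 6 each), or 0.894, 0.825 and 0.825 after adjustment over the 3. Without HFB 6 the difference for Col5a1 to Col5a2 was 0.027, and that for Col3a1 to Col1a1 was -0.033, against -0.23 without CTL 14. That for Col1a1 to Col1a2 lay below 0 without HFB 5, HFB 6, CTL 8 or CTL 10, with the lowest value of -0.039 without HFB 6.

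Pairs of genes were followed across the 10 libraries other than HFB 6 and CTL 14, since a correlation over separate clusters would reflect the gap between them. Col1a1 and Col1a2 varied together with a Pearson r of 0.96 (permutation p = 3e-05, adjusted 0.000240) and a Spearman rho of 0.94 (permutation p = 0.000200, adjusted 0.000800). Without CTL 9 and HFB 5, the farthest from the median of Col1a1, r was 0.94. Col1a1 and Col3a1 gave r = 0.80 (permutation p = 0.00478, adjusted 0.0127) and rho = 0.72 (permutation p = 0.0231, adjusted 0.0462), and r = 0.81 without the same 2 libraries. Both relations passed the threshold of 0.05 after adjustment.

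Col5a1 and Col5a2, likewise chains of 1 molecule, gave r = 0.60 (permutation p = 0.0652, adjusted 0.104) and rho = 0.52 (permutation p = 0.132, adjusted 0.176), and r = 0.45 without HFB 2 and HFB 5. The neighbouring genes Lum and Dcn gave r = 0.15 (permutation p = 0.679, adjusted 0.706) and rho = 0.14 (permutation p = 0.706, adjusted 0.706), and r = 0.13 without HFB 2 and HFB 3. Neither relation passed the threshold. The 4 pairs were adjusted together, with r and rho both counted.

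Col1a1 and Col4a1 were also set against the score of each marker list, the mean log2 CPM of its genes, over the same 10 libraries. Of the 20 relations none had a permutation p of r under 0.05, and r lay between -0.24 (Col4a1 with red blood cell genes) and 0.61 (Col4a1 with fibroblast genes). For this last pair the permutation p of r was 0.0637, rho was 0.67 with a permutation p of 0.0389, and both were 0.916 after adjustment. Without CTL 8 and HFB 2, its r was 0.63. Within the diets, among the same 10 libraries, its r was 0.50 with HFB and 0.036 with CTL. For Col4a1 with red blood cell genes r went to -0.69 without CTL 9 and HFB 2 (permutation p = 0.0615). With 10 glands, weaker relations could not be told from none.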

How the data were processed

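RNA of 12 mammary glands was sequenced. The authors deposited raw counts of reads per gene, listed by Entrez identifier, and their notes name bcl2fastq, CASAVA 1.8, TopHat, DESeq and the build rn4 without saying what each did. The members and lists were chosen with earlier results of these data known. Identifiers were paired with RefSeq symbols for 16351 of 16511 genes. Diets were compared in edgeR 4.0.16 (R 4.3.3; TMM scaling, filterByExpr, quasi-likelihood test) on all genes, with p-values adjusted by Benjamini-Hochberg and called at 0.05. CPM came from the TMM-scaled totals, and log2 CPM for scores and correlations used a prior count of 2. Ratios and correlations were tested by permutation in Python 3.11.15 with scipy 1.17.1, exactly for ratios and with 100000 resamples for correlations.

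The comparison was repeated with DESeq2 1.42.0, its size factors in edgeR, limma 3.58.1 (voom with quality weights), upper-quartile scaling, a filter of 10 or more counts in each library, no filter, lymphocyte or skeletal muscle scores as covariates, and leaving out each library. Added after the data had been seen were HFB 6 and CTL 14 left out together and lymphocyte and adipocyte scores as covariates. Values by library were planned for the gene with the highest level and that with the smallest p in each role, for the most and the least variable gene and for both genes of each ratio. Levels were to be taken per kilobase, but since no lengths were used, the highest mean CPM took their place. Ratios and pairs with a gene not analysed here were not computed, which left 3 of 6 ratios and 4 of 9 pairs. Correlations had been planned over 12 libraries and are given over 10 because HFB 6 and CTL 14 stood apart. Over all 12, 4 of 4 pairs and 7 of 20 relations with marker scores had an unadjusted permutation p of r under 0.05, against 2 and 0 over the 10.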

Additional observations from a re-analysis of the deposited data

Results flagged for a closer look

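In groups of 6 libraries, 64 groups of values were examined for a single library lying far from the others of its diet (gap over range above Dixon's 95% critical value). Of these 19 had one, where chance alone gives about 5%, or 3.2 groups. CTL 14 was the library in 14 of the 19.

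CTL 14 lay far below the other CTL libraries for 12 genes, with 8530.5 CPM for Col3a1, 409 for Col5a2, 1402 for Col4a1, 267 for Col14a1, 295 for Lamc1 and 671 for Fn1. The others were Postn at 1326, Sparc at 5911, Fbn1 at 76.1, Dcn at 731, Lum at 236 and Ogn at 93.3 CPM. It lay far above them for Col16a1 (117 CPM) and Lama5 (101 CPM).

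HFB 6 lay far above the other HFB libraries for Lama5 (91.0 CPM), Bgn (729 CPM) and Fmod (56.9 CPM). Single libraries stood out for Col1a1, with 19364 CPM in HFB 5, and for Eln, with 1883 CPM in CTL 9. What set these libraries apart was not tested.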

How the results depend on the processing

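No paired analysis was possible because the labels pair no litters between the diets. In each setting tried, edgeR, DESeq2 or limma-voom put 0 genes, and so 0 matrix genes, past the adjusted threshold. At an unadjusted p under 0.05, edgeR gave 220 genes, 0 matrix genes and 1 related gene, and DESeq2 gave 271 genes and 0 matrix genes. The matrix genes numbered 12 with limma-voom, 6 without HFB 6 and CTL 14, 2 with lymphocyte and adipocyte covariates, and 0 to 5 with 1 library left out. All genes numbered 613, 431, 666 and 135 to 587 in the same order, and 389 with the lymphocyte covariate. Leaving out HFB 5 gave the fewest and CTL 14 the most. The related genes numbered 11, 7, 3 and 0 to 5 in the same order, 2 each with upper-quartile scaling, with at least 10 counts in every library and with the lymphocyte covariate, and 0 with the skeletal muscle covariate.

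The median log2 fold change of the matrix genes ran from -0.29 with limma-voom to -0.073 with the lymphocyte covariate, against -0.16. Of 18 named log2 fold changes, 10 kept their sign in every setting. Col5a3 went to -0.0048 with upper-quartile scaling, -0.13 with limma-voom and -0.090 without HFB 6 and CTL 14. Col6a2 went to -0.19 and -0.053 in the last 2. With the lymphocyte covariate Nid2 went to 0.033, Sparc to 0.071 and Dcn to 0.071. Others kept their sign but came closer to 0 by more than 1.5 times with that covariate: Col1a1 from -0.078 to -0.027, Col1a2 from -0.11 to -0.028, Col3a1 from -0.24 to -0.12, Col5a1 from -0.35 to -0.14, Col5a2 from -0.20 to -0.091, Col6a2 from 0.16 to 0.038, Col14a1 from -0.22 to -0.12, Col4a1 from -0.26 to -0.17, Lamc1 from -0.30 to -0.19, Postn from -0.21 to -0.069, Lox from -0.52 to -0.078 and Lum from -0.17 to -0.068. Col5a3 (0.031 to 0.10), Lama5 (-0.18 to -0.31) and, slightly, Eln moved away from 0 with it. The skeletal muscle covariate took Lama5 to -0.53, Col6a2 to 0.087 and Col5a3 to 0.051. With limma-voom others moved away from 0 by more than 1.5 times: Col1a1 to -0.25, Col1a2 to -0.22, Lama5 to -0.34, Postn to -0.42, Sparc to -0.13, Eln to -0.22 and Lum to -0.33. Nid2, at -0.068, and Lox, at -0.33, came closer to 0, and 28 of 28 matrix genes lay below 0 (51.2% of all genes). With 1 library left out, the range was -0.22 to 0.016 for Col1a1 (without HFB 5, without CTL 9), -0.082 to 0.087 for Col5a3 (CTL 14, CTL 9), -0.090 to 0.26 for Col6a2 (HFB 6, HFB 2) and -0.20 to 0.042 for Eln (CTL 8, CTL 9). Without CTL 14 at the low end and HFB 6 at the high end, it was -0.30 to 0.047 for Nid2, -0.19 to 0.058 for Sparc and -0.25 to 0.061 for Dcn, and for Lama5, with these reversed, -0.79 to 0.42. The log2 ratio difference ran -0.039 to 0.057 for Col1a1 to Col1a2 (HFB 6, CTL 14), -0.23 to -0.033 for Col3a1 to Col1a1 (CTL 14, HFB 6) and -0.40 to 0.027 for Col5a1 to Col5a2 (HFB 1, HFB 6). The cause was not tested.

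Totals of 2320267 to 2944680 counts limit genes of few counts, such as Lox, and CPM without lengths allows no comparison of levels between genes. With 6 glands per diet, of which 1 each stood apart, differences smaller than the spread of the glands were not detectable. Of the 42 listed genes 29 were matched, and partners of several chains were not analysed here. Fat cell and fibroblast genes were counted in each library, unlike the dissected epithelium the paper describes, and the exposure window was not settled.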
